A study of Mus musculus with 4 samples.

Results

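Histone methylation is set by methyltransferases ("writers") and removed by demethylases ("erasers"), and 35 mouse genes for such enzymes and their closest complex subunits are described here in embryonic stem cells with and without induced deletion of Arid1a, a DNA-binding subunit of the BAF chromatin remodelling complex. The genes were chosen by name: the KMT2 and SET1 methyltransferases of histone H3 lysine 4 (H3K4) with their shared COMPASS subunits, the H3K9, H3K36 and H3K79 methyltransferases, and the lysine demethylases. All 35 had a row among the 14382 genes of the deposited table, and all 35 were among the 14376 genes that could be tested. Both groups were Arid1af/f:CreERT2 embryonic stem cells, which carry floxed Arid1a alleles and a tamoxifen-inducible Cre. They were grown with serum, serum replacement and leukemia inhibitory factor on irradiated mouse embryonic fibroblasts. One group (n = 2) was given 1 µM 4-hydroxytamoxifen (4-OHT), which activates the Cre, for 24 h, the other (n = 2) ethanol, and polyA RNA was taken 72 h after treatment. The promoter that drives the Cre and the number of clones were not stated in the labels. Cells given 4-OHT without floxed alleles were not analysed here, so the effects of the deletion and of 4-OHT itself cannot be told apart. Nothing says that the 2 libraries of a group came from separate cultures, so p-values here reflect how far these libraries lay apart, which may be technical variation. In bulk RNA, fewer cells expressing a gene and less RNA per cell cannot be told apart.

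Methylation of H3K4 marks promoters and enhancers. KMT2A, KMT2B, KMT2C, KMT2D, SETD1A and SETD1B each place it within a COMPASS complex, whose core of WDR5, ASH2L, RBBP5 and DPY30 is shared by all of them; SETD1 enzymes work with CXXC1, and KMT2A and KMT2B with menin. KDM5 enzymes and KDM1A remove H3K4 methylation, and KDM6A and KDM6B remove the H3K27 methylation that Polycomb places. H3K9 methylation silences genes and retroelements; in embryonic stem cells TRIM28 brings SETDB1 to retroelements. KDM3 and KDM4 enzymes erase H3K9 methylation, and KDM2A, with the KDM4 enzymes, erases H3K36 methylation, which SETD2, NSD1 and ASH1L write along or near transcribed genes.

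The sequences just upstream of the transcription start are shown for the genes that rose with 4-OHT (below), because several of these proteins, such as KMT2A, KDM2A and CXXC1, bind unmethylated CG dinucleotides and the windows of the risen genes differ widely in them. RefSeq (GRCm38.p6) held 24 of the 35 promoters; of the risen genes it held Kmt2c, Kdm5b and Kdm4c, the last with 2 starts. Each line gives the 250 bases before the start, 5′ to 3′ on the gene's strand; capitals mark matches to a GC box (GGGCGG) or an E-box (CACGTG) on either strand, overlapping matches included.
Kmt2c (chr5:25498784-25499033, minus strand): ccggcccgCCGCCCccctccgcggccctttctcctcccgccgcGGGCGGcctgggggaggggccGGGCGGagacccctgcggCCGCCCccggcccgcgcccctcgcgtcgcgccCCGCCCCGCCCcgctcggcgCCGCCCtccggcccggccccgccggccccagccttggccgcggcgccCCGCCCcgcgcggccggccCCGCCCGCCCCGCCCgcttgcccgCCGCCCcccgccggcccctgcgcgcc
Kdm5b (chr1:134559928-134560177, plus strand): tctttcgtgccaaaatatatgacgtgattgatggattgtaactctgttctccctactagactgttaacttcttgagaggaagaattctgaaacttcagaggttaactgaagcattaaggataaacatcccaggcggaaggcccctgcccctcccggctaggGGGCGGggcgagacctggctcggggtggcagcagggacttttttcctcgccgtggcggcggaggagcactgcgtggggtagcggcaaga
Kdm4c, upstream start (chr4:74242247-74242496, plus strand): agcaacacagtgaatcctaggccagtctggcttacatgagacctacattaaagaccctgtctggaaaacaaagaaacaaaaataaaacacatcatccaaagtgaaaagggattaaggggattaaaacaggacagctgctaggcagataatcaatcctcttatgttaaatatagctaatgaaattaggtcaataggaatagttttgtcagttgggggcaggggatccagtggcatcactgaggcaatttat
Kdm4c, downstream start (chr4:74251629-74251878, plus strand): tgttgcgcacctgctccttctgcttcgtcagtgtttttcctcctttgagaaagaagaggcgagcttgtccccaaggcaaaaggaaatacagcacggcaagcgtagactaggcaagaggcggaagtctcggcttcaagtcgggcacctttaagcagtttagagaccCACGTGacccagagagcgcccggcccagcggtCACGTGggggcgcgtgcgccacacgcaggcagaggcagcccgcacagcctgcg
The Kmt2c window was 91.6% G or C with 48 CG dinucleotides and 12 GC boxes. Kdm5b had 13 CG and 1 GC box. Kdm4c had 0 CG upstream of its first start and 19 CG with 2 E-boxes upstream of its second. Over 24 windows, 1 per gene (the start nearest to the Gencode gene start), the median was 17.5 CG, against 6 over all 32851 RefSeq promoter windows of the same length. A GC box was found in 16 of the 24 (66.7%), against 32.7% of all windows, and an E-box in 8.33%, against 6.02%. CCAAT stood in 37.5% against 33.8%, the CRE motif TGACGTCA in 4.17% against 1.55%, and neither CCGGAAGT (2.88% of all windows) nor TATAAA (12.4% of all windows) was found in any of the 24. The full set of windows counts every start of a gene and was not matched to these genes by level. Whether the differences are particular to writers and erasers was not tested. A match describes letters in these windows, not a bound site.

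Levels are in CPM, reads scaled to a library of fixed size. The table holds group means in CPM, and whole read numbers per library were worked out from them. The libraries, named A and B within a group, held 6188378 to 7012664 reads. One read was worth 0.142 to 0.159 CPM, and a gene with 0 reads would still allow a level of 0.426 to 0.477 CPM, depending on the library (3 reads; this covers counting error alone). Arid1a itself was at 517 and 502 CPM with ethanol and at 241 and 213 CPM with 4-OHT (log2 fold change -1.16, SE 0.066, limma adjusted p = 7.27e-06). Arid1a reads thus remained with 4-OHT, and the table does not show how many fell in the deleted part. All 10 pluripotency genes looked at were measured, and Pou5f1, which encodes OCT4, was at 1498 and 1386 CPM with ethanol and at 1363 and 1514 CPM with 4-OHT. Of this list Nanog (309 and 318, then 403 and 402 CPM) and Tdgf1 (657 and 676, then 812 and 825 CPM) rose and Sox2 (349 and 327, then 292 and 289 CPM) fell; the other 7 did not pass in limma. Feeder fibroblast markers were present: 14 of 20 were measured, Dcn, Lum, Postn, Fap, Twist2 and Prrx1 had no row, and the sum went from 876 and 848 to 744 and 713 CPM, mostly Tagln (649 and 625, then 485 and 465 CPM), while the collagen gene Col1a2 went from 19.7 and 21.996 to 47.5 and 42.4 CPM; limma called 2 of the 14 higher and 2 lower. Of 11 neural markers 9 were measured, and limma called 7 higher and 1 lower, with a median log2 fold change of 0.67. Among them Sox1 rose from 91.3 and 87.5 to 160.3 and 149 CPM, Tubb3 from 48.0 and 45.6 to 73.6 and 76.1 CPM and Zic1 from 0.775 and 1.25 to 6.40 and 5.09 CPM, while Nes, the most abundant, fell from 212 and 226 to 152 and 143 CPM. The neural sum was 394 and 398 CPM with ethanol and 442 and 428 CPM with 4-OHT. Extraembryonic endoderm markers summed to 39.2 and 40.4 against 49.0 and 46.6 CPM (9 of 12 measured, 0 called by limma, 2 higher by edgeR). The part of these cell types in the results below was not tested.

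With 4-OHT, 5 enzyme genes rose and none fell in the main test, limma without a filter, while edgeR also called Ehmt2 lower. Those that rose were Kmt2c and Setd1b, which write H3K4 methylation, Kdm5b, which erases it, the H3K27 demethylase Kdm6b and the H3K9 and H3K36 demethylase Kdm4c. All 5 changes were small: the largest ratio of group means was 1.28. In mm10, Kmt2c (59 exons in its longest coding transcript) lies at chr5:25271798-25498783 on the minus strand, Setd1b (17 exons) at chr5:123142193-123168629 on the plus strand, and Kdm5b (27 exons) at chr1:134560171-134635285 on the plus strand. Kdm6b (23 exons) lies at chr11:69398508-69413675 on the minus strand and Kdm4c (22 exons) at chr4:74242497-74405860 on the plus strand. The test was limma on log2(CPM + 1), with p-values adjusted by Benjamini-Hochberg over all 14376 genes and a threshold of 0.05, so each fold change is on that scale. It called 9.46% of all genes, 5.24% higher and 4.22% lower. Among the 6692 genes with a mean of at least 30 CPM, where 34 of the 35 lie, it called 11.3%, 5.44% higher and 5.86% lower. EdgeR called 10 of the 34 it tested, 9 higher and 1 lower, against 15.8% of all genes (8.12% higher, 7.63% lower). Limma with a minimum mean of 1 or 10 CPM called the same 10 genes. DESeq2 called 2 of the 34 it tested, Kdm4c and Kdm5b, against 5.21% of all genes (2.85% higher, 2.36% lower). At an unadjusted p under 0.05, 12 of the 35 were higher and 2 lower, where 23.9% of all genes passed, 12.5% higher and 11.4% lower. The libraries of the 2 groups did not overlap for 26 genes, 20 higher and 6 lower with 4-OHT, where over all genes 52.1% did not overlap, 26.4% entirely above and 25.7% entirely below. The median log2 fold change was 0.11 over the 35 genes and -0.0016 over all genes tested. Kdm4c alone passed at an adjusted p of 0.01. With either 4-OHT library left out limma called 0 genes of the whole table, hence 0 of the 35 (12 and 11 at an unadjusted p under 0.05), and edgeR, run on the recovered reads, called 8 and 11 of them. With either ethanol library left out limma called 3 and 2 of the 35, and edgeR 3 and 3.

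**Figure D1:**
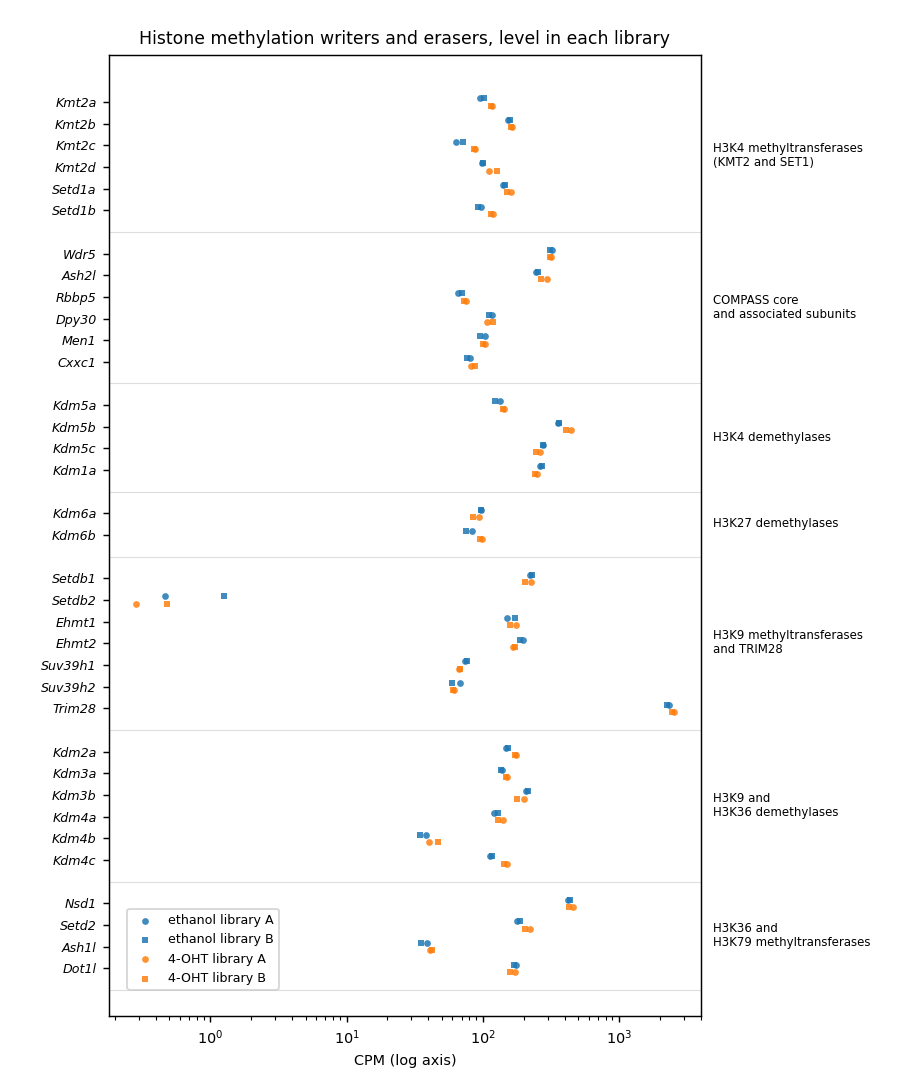
CPM of the 35 genes in each of the 4 libraries, on a log axis, grouped by role; blue is ethanol, orange 4-OHT, and shapes are libraries A and B. Trim28 is the highest at 2249 to 2540.5 CPM and Setdb2 the lowest with 2 to 8 reads, and most pairs of groups lie close together.

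**Figure D2:**
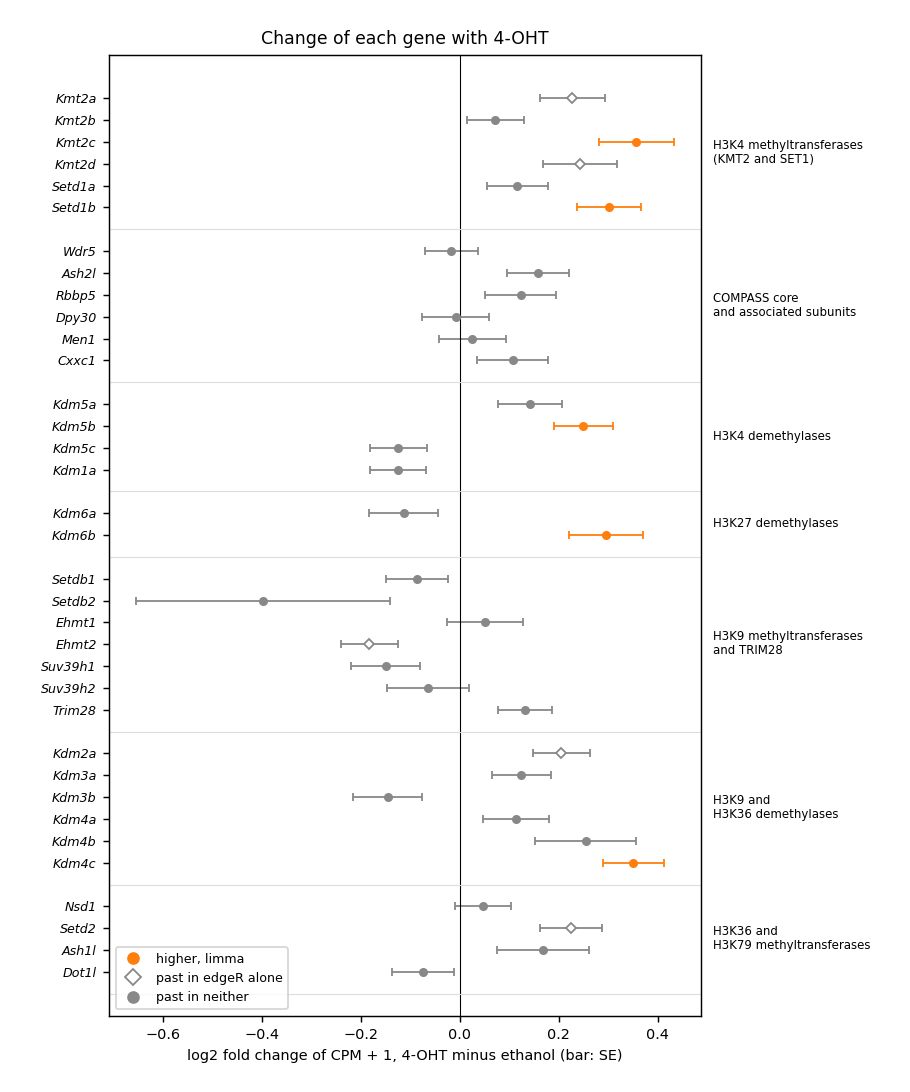
Difference of log2(CPM + 1) between 4-OHT and ethanol, with its SE, for the 35 genes by role. The 5 orange points passed in limma, open diamonds passed in edgeR alone, and every change but that of Setdb2 (-0.40) lies between -0.18 and 0.36.

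The 6 H3K4 methyltransferases had all their 4-OHT libraries above their ethanol libraries, as had 26.4% of all genes. All of them but Setd1a have a coding transcript of at least 8 kb. Among all genes of that length with a mean of at least 30 CPM, 58.05% had a fold change over 0. Kmt2c, one of the enzymes that monomethylates enhancers, was at 64.2 and 71.4 CPM with ethanol and at 87.4 and 86.6 CPM with 4-OHT. Its log2 fold change was 0.36 (SE 0.076, limma adjusted p = 0.0150; edgeR 0.000656). Setd1b, a methyltransferase of promoter H3K4, went from 98.1 and 92.4 CPM to 119 and 116 CPM, a log2 fold change of 0.30 (SE 0.065, limma adjusted p = 0.0165; edgeR 0.00183). In both genes the 4-OHT libraries were close to each other and the ethanol libraries lay well below them. The remaining 4 did not pass in limma. Kmt2d, the close relative of Kmt2c, was at 99.5 and 100.3 CPM with ethanol and at 111 and 127 CPM with 4-OHT (log2 fold change 0.24, limma adjusted p = 0.0753; edgeR 0.0163). Kmt2a, the enzyme known from leukaemia translocations, was at 95.9 and 103 CPM, then 118 and 115 CPM (0.23, limma adjusted p = 0.0584; edgeR 0.0241). Both passed in edgeR, which called 15.8% of the 12961 genes it tested, 8.12% higher. Setd1a was at 142 and 146 CPM, then 161 and 151 CPM (0.12, limma adjusted p = 0.289), and 53.3% of its annotated exon bases are shared with Gm49388 on the same strand, so its reads are uncertain. Kmt2b was at 153 and 158 CPM, then 164 and 163 CPM (0.07, limma adjusted p = 0.503). Over the 6 genes the summed level was 653 and 671 CPM with ethanol and 760.0 and 759 CPM with 4-OHT, a ratio of 1.15, and their median log2 fold change was 0.23.

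The COMPASS core subunits did not pass in limma or edgeR. Ash2l, which stimulates the catalytic subunit, was at 248 and 257 CPM with ethanol and at 297 and 268 CPM with 4-OHT (log2 fold change 0.16, limma adjusted p = 0.159). Rbbp5, its direct partner, was at 66.5 and 70.8 CPM, then 76.0 and 73.6 CPM (0.12, limma adjusted p = 0.345). The 4-OHT libraries of both were the higher ones. Wdr5, the scaffold that binds the catalytic subunits, was at 325 and 313 CPM, then 319 and 312 CPM, and the 95% interval of its log2 fold change ran from -0.14 to 0.10. Dpy30 was at 116 and 112 CPM, then 108 and 118 CPM. Men1, which encodes menin, was at 105 and 96.4 CPM, then 103 and 101 CPM. The libraries of these 3 genes overlapped between groups. Cxxc1, the CG-binding subunit of the SETD1 complexes, was at 80.9 and 76.6 CPM, then 82.2 and 87.6 CPM (0.11, limma adjusted p = 0.414). Together the 6 subunits summed to 943 and 925 CPM with ethanol and to 986 and 961 CPM with 4-OHT.

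Among the H3K4 demethylases Kdm5b rose, while its paralog Kdm5c and the unrelated Kdm1a were lower in both 4-OHT libraries without passing the threshold. Kdm5b was at 355 and 366 CPM with ethanol and at 449 and 410.4 CPM with 4-OHT, a log2 fold change of 0.25 (SE 0.060, limma adjusted p = 0.0271; edgeR 0.00118). Its 4-OHT libraries were both above its ethanol libraries, and library A was the higher. Kdm5a was at 135 and 124 CPM, then 144 and 141 CPM (0.14, limma adjusted p = 0.221). Kdm5c, on the X chromosome, was at 279 and 276 CPM, then 264 and 245 CPM (-0.12, limma adjusted p = 0.225). Kdm1a, the flavin-dependent demethylase of the CoREST complex, was at 264 and 275 CPM, then 252 and 242 CPM (-0.13, limma adjusted p = 0.207).

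The 2 H3K27 demethylases differed in the same way. Kdm6b, which encodes JMJD3, was at 84.2 and 75.04 CPM with ethanol and at 99.4 and 96.2 CPM with 4-OHT, a log2 fold change of 0.30 (SE 0.075, limma adjusted p = 0.0352; edgeR 0.00454). Kdm6a, which encodes UTX and lies on the X chromosome, was at 97.6 and 96.7 CPM, then 94.0 and 85.7 CPM (-0.11, limma adjusted p = 0.369). Kdm6b was thus the lower of the pair in both ethanol libraries and the higher in both 4-OHT libraries. The antisense gene Kdm6bos covers 4.30% of the exon bases of Kdm6b, and the labels do not say whether the counting used strand. Other genes of the set share more exon bases with a gene on the opposite strand: Suv39h1 11.1% (Gm14820), Suv39h2 8.25% (Dclre1c) and Setdb1 5.34% (Gm37500). The Y-linked near copies Uty (54.4 and 60.8, then 45.9 and 57.4 CPM) and Kdm5d (4.96 and 5.93, then 5.40 and 5.25 CPM) share sequence with Kdm6a and Kdm5c. How reads were assigned between these copies is not known and was not tested.

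Of the 7 genes of H3K9 methylation, none passed in limma and 5 had a log2 fold change under 0, Setdb2 near the floor among them. Over all genes 7243 of 14376 were under 0, and 3615 of the 6692 with a mean of at least 30 CPM. Ehmt2, which encodes an H3K9 dimethylase, was at 196 and 188 CPM with ethanol and at 166 and 172 CPM with 4-OHT, a log2 fold change of -0.18 (SE 0.058, limma adjusted p = 0.0829); it was the 1 gene of the 35 that edgeR called lower (adjusted p = 0.0444, where edgeR called 7.63% of all genes lower). Suv39h1, a trimethylase of heterochromatin on the X chromosome, was at 74.2 and 76.4 CPM, then 67.4 and 68.2 CPM (-0.15, limma adjusted p = 0.223). The 4-OHT libraries of both lay below their ethanol libraries. Setdb1, the enzyme of retroelement silencing, was at 224 and 232 CPM, then 225 and 205 CPM (-0.09, limma adjusted p = 0.454). Ehmt1, whose product pairs with EHMT2, was at 151 and 172 CPM, then 176 and 159 CPM (0.05, limma adjusted p = 0.753). Suv39h2 was at 68.2 and 59.7 CPM, then 61.3 and 60.7 CPM (-0.06, limma adjusted p = 0.700). These 3 overlapped between groups. Trim28 was at 2332 and 2249 CPM, then 2540.5 and 2481 CPM (0.13, limma adjusted p = 0.176). Setdb2 had 3 and 8 reads with ethanol and 2 and 3 reads with 4-OHT, at about the floor, so that a difference was not detectable at this depth.

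Kdm4c, a demethylase of H3K9 and H3K36, had the lowest adjusted p of the 35 genes. It was at 114 and 117 CPM with ethanol and at 151 and 144 CPM with 4-OHT, a log2 fold change of 0.35 (SE 0.062, limma adjusted p = 0.00565; edgeR 8.29e-05; DESeq2 0.00722). Both 4-OHT libraries were well above both ethanol libraries. Its paralogs did not pass in limma or edgeR: Kdm4a was at 122 and 129.6 CPM, then 141 and 131 CPM (0.11, limma adjusted p = 0.344), and Kdm4b at 38.1 and 34.9 CPM, then 40.5 and 47.2 CPM (0.25, limma adjusted p = 0.162). Kdm2a, a CG-binding H3K36 demethylase, was at 148 and 153.5 CPM, then 175 and 173 CPM (0.20, limma adjusted p = 0.0542; edgeR 0.0244). The H3K9 demethylase Kdm3a was at 139.8 and 135 CPM, then 151 and 149 CPM (0.12, limma adjusted p = 0.233). Kdm3b, its paralog, was at 207 and 214 CPM, then 203 and 178 CPM (-0.15, limma adjusted p = 0.233). Of these 6 genes, 5 had both 4-OHT libraries above ethanol, and Kdm3b had both below, against 26.4% and 25.7% of all genes.

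None of the H3K36 and H3K79 methyltransferases passed in limma. Setd2, the H3K36 trimethylase that travels with elongating polymerase, was at 179 and 188 CPM with ethanol and at 224 and 205 CPM with 4-OHT (log2 fold change 0.22, limma adjusted p = 0.0542; edgeR 0.00912). Ash1l was at 39.1 and 35.3 CPM, then 41.1 and 42.6 CPM (0.17, limma adjusted p = 0.309). Both were higher in both 4-OHT libraries. Nsd1, an H3K36 dimethylase, was at 424 and 438 CPM, then 462 and 429 CPM (0.05, limma adjusted p = 0.682). Dot1l, the H3K79 methyltransferase, was at 177 and 170.35 CPM, then 172 and 158 CPM (-0.08, limma adjusted p = 0.525). The libraries of these last 2 genes overlapped.

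Per kilobase of the longest coding transcript, which is a rough scale because the transcripts used for counting are not known, the levels with ethanol ran from 706 CPM per kilobase for Trim28 to 0.28 for Setdb2. Trim28 was followed by Dpy30 with 144, Wdr5 with 110, Kdm1a with 89.1 and Ash2l with 76.4 CPM per kilobase. Of the H3K4 methyltransferases Kmt2c stood at 4.53, Kmt2d at 5.04, Kmt2a at 6.03, Setd1b at 10.8, Kmt2b at 18.4 and Setd1a at 22.2 CPM per kilobase. The core subunits Dpy30, Wdr5 and Ash2l thus lay above all 6 of these enzymes, while Rbbp5, at 20.3, lay within their range. Ash1l stood at 3.19 CPM per kilobase, the lowest after Setdb2. The precision was similar across the genes: apart from Setdb2 each had at least 224 reads in every library, the SE of the log2 fold change was 0.054 to 0.102, and 33 of the 35 had a 95% interval within ±0.5.

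Ratios of related enzymes within a library do not depend on the scaling between libraries. For 11 pairs, picked after their values were seen, the ratio was above both ethanol libraries in both 4-OHT libraries for 7 and overlapped for 4. In every pair but Suv39h1 to Suv39h2 the gene with the higher log2 fold change was put first. The direction thus follows from the order chosen, and the ratios restate the changes of the single genes. With 2 libraries a group the smallest two-sided p of an exact permutation test is 0.333, so the ratios are given as values. Kdm6b to Kdm6a was 0.862 and 0.776 with ethanol and 1.06 and 1.12 with 4-OHT. Kdm5b to Kdm5c went from 1.27 and 1.33 to 1.70 and 1.67, and Kdm4c to Kdm4a from 0.939 and 0.903 to 1.07 and 1.10. Each of these 3 pairs sets a gene that rose against a paralog that did not pass. Setd1b to Setd1a was 0.690 and 0.631, then 0.736 and 0.767, Kmt2a to Kmt2b 0.626 and 0.652, then 0.716 and 0.709, and Ehmt1 to Ehmt2 0.771 and 0.914, then 1.06 and 0.922. Kdm3a to Kdm3b was 0.676 and 0.634, then 0.747 and 0.837. Kmt2c to Kmt2d, Kdm5b to Kdm5a, Kdm4c to Kdm4b and Suv39h1 to Suv39h2 overlapped between the groups.

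**Figure D3:**
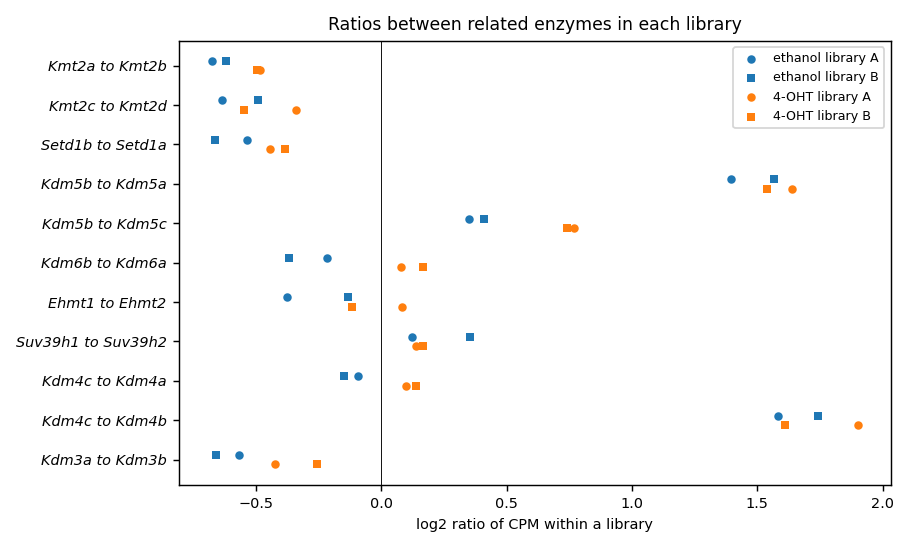
Log2 ratio of CPM between 11 pairs of related genes in each library; blue is ethanol, orange 4-OHT, and shapes are libraries A and B. In CPM, Kdm6b to Kdm6a crosses the line of equality, from 0.862 and 0.776 with ethanol to 1.06 and 1.12 with 4-OHT. CPM is not divided by transcript length, and per kilobase the group mean of Kdm6b stays below that of Kdm6a with 4-OHT (14.7 against 15.1).

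Many of the genes that rose have long transcripts, and long transcripts differed between libraries of the same group. All 11 genes of the set with a coding transcript of at least 8 kb had a log2 fold change over 0, with a median of 0.22, and limma called 3 of them higher (Kmt2c, Setd1b and Kdm5b). Of the 441 genes of this length with a mean of at least 30 CPM, 58.05% had a fold change over 0, against 45.21% of the shorter ones, the median was 0.03, and limma called 7.48% higher and 5.67% lower. Across 6637 genes, transcript length and the log2 ratio of ethanol library B over A had a Spearman rho of 0.217, and of 4-OHT library B over A -0.340. For 4-OHT library A rho was 0.206 over ethanol library A and 0.078 over ethanol library B. For 4-OHT library B it was -0.0099 over ethanol library A and -0.153 over ethanol library B. The letters do not pair libraries of the 2 groups. For the fitted fold change rho was 0.043, and over the 34 genes other than Setdb2 it was 0.477. The genes share these 4 libraries, so the values are descriptions. Removing the length trend of each library, a step chosen after the data were seen, was done on genes with a mean of at least 1 CPM. That minimum alone gave 10 of the 35 in limma, and with the trend removed it was also 10, of which 8 were shared; all 5 genes above were in both. Kmt2a (adjusted p = 0.0243 before and 0.135 after) and Kmt2d (0.0168 before and 0.178 after) no longer passed in limma, while Ash2l and Trim28 did. The log2 fold change of Kmt2a went from 0.23 to 0.15, that of Kmt2d from 0.24 to 0.15 and that of Kmt2c from 0.36 to 0.29.

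**Figure D4:**
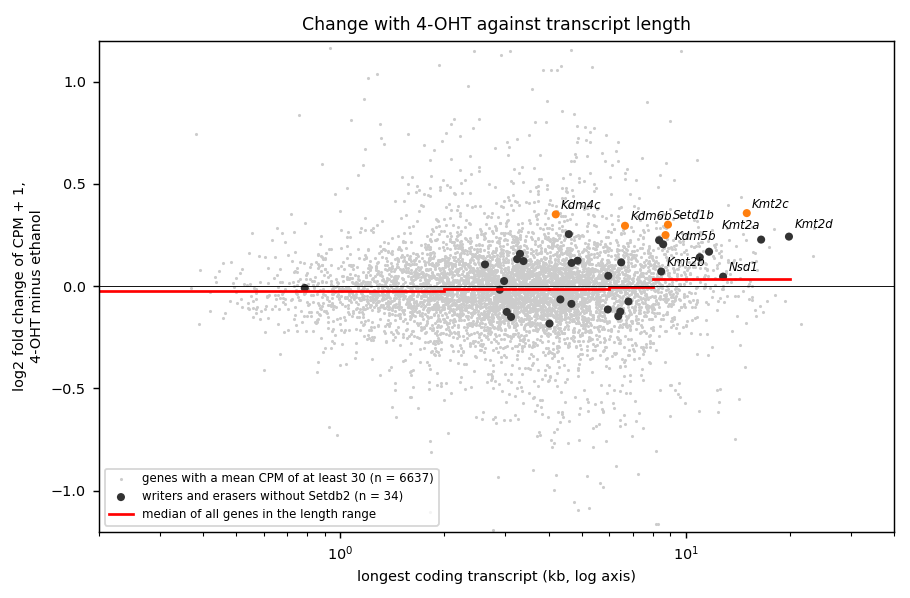
Log2 fold change of CPM + 1 against the length of the longest coding transcript (log axis) for 6637 genes with a mean of at least 30 CPM (grey), the 34 writers and erasers other than Setdb2 (black; orange where limma called them higher) and the median of all genes in each length range (red). The vertical axis ends at ±1.2, beyond which 11 genes lie; genes of at least 8 kb have a median of 0.03 and the 11 writers and erasers of that length all lie above 0.

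The 3 genes on the X chromosome, Kdm5c, Kdm6a and Suv39h1, each had both 4-OHT libraries below ethanol, as had 25.7% of all genes. None of the 3 passed in limma or edgeR. Among genes with a mean of at least 30 CPM, the 213 on the X chromosome had a median log2 fold change of -0.05, against -0.01 for 6469 autosomal genes. Limma called 11.7% of the 213 lower and 6.57% higher, against 5.67% and 5.41% of the autosomal genes. The part of these differences in the values of the 3 genes was not tested.

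Genes that work with these enzymes were read from 7 further lists, of which 111 genes were tested; limma called 8 higher and 2 lower, against 5.24% and 4.22% of all genes, and their median log2 fold change was 0.04. Of 14 COMPASS and MLL partners 1 rose: Psip1, which encodes the chromatin tether LEDGF, went from 339 and 350 CPM to 401 and 405 CPM (log2 fold change 0.22, limma adjusted p = 0.0252). Of 12 partners of KDM1A 2 rose. Phf21a, which encodes BHC80, a reader of unmethylated H3K4, went from 37.7 and 40.1 CPM to 66.5 and 54.0 CPM (0.61, limma adjusted p = 0.00490), and Rcor2, a CoREST scaffold, from 222 and 225 CPM to 259 and 269 CPM (0.24, limma adjusted p = 0.0231). Both rose while Kdm1a itself did not pass. Of 20 partners of H3K9 silencing none passed in limma. The largest change was Morc2a, a HUSH-associated ATPase, at 0.22 (limma adjusted p = 0.157, edgeR 0.0170). EdgeR called 1 of the 20 higher and 1 lower, against 8.12% and 7.63% of all genes, and their median log2 fold change was -0.0075.

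Of 14 partners of H3K36 and H3K79 methylation 2 rose and 1 fell. Supt6, the elongation factor that SETD2 works with, went from 426 and 430.0 CPM to 534 and 492 CPM (0.26, limma adjusted p = 0.0185). Aff4, the scaffold of the super elongation complex, went from 374 and 385 CPM to 461 and 448 CPM (0.26, limma adjusted p = 0.0120), while its paralog Aff3 fell from 34.1 and 29.95 CPM to 21.9 and 21.1 CPM (-0.55, limma adjusted p = 0.0120). The 2 paralogs thus moved in opposite directions. Of 27 other lysine methyltransferases Smyd1, known from muscle, rose from 4.34 and 5.15 CPM to 8.67 and 8.27 CPM (0.72, limma adjusted p = 0.0315). Smyd2, a methyltransferase with many non-histone substrates, fell from 71.9 and 73.0 CPM to 48.6 and 46.7 CPM (-0.59, SE 0.075, limma adjusted p = 0.000924), a larger change with a lower adjusted p than for any of the 35 genes. Of 14 other demethylases Kdm7a rose from 20.6 and 21.4 CPM to 29.3 and 27.02 CPM (0.41, limma adjusted p = 0.0461) and Hr, which encodes hairless, from 13.8 and 12.5 CPM to 22.5 and 19.4 CPM (0.63, limma adjusted p = 0.0172). Of 10 genes of arginine methylation none passed; the largest change was Prmt8, from 8.83 and 8.27 CPM to 6.11 and 5.09 CPM (-0.54, limma adjusted p = 0.0930; edgeR 0.0458). Of the 10 genes of these lists that limma called, DESeq2 did not pass Aff3 (adjusted p = 0.0604), Hr (0.0899), Smyd1 (0.285) and Kdm7a (0.315); edgeR passed all 10.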

How the data were processed

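PolyA RNA of 4 libraries, 2 a group, was sequenced; the labels name both an unstranded and a stranded kit without saying which library had which. Per the submitters' processing notes the authors used FastQC, Trimmomatic, HISAT2 and edgeR with mm10; no source used here names the counter, annotation or strand setting. The values deposited are mean CPM per group. The deposited log2 fold changes and adjusted p-values were not used: they run in the text order of the gene numbers and did not follow the CPM of their rows (Spearman rho 0.0167 over 13100 genes). Each mean was split into whole reads of 2 libraries from the value of 1 read in each; 100.0% of values came out whole, within 1.2 times the rounding of the last digit (random values: 0.233% and 0.1%), 6 genes with several solutions were left out, and 37 ethanol and 7 4-OHT genes were settled by taking the solution within 2-fold.

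The main test was limma 3.58.1 (trend) on log2(CPM + 1), with no filter, tested on simulated data; edgeR 4.0.16 (quasi-likelihood) on the recovered reads called 2042 genes and DESeq2 1.42.0 called 704, against 1360 in limma. R was 4.3.3. Lengths, exons and overlaps came from Gencode vM21 and promoters from RefSeq. Symbols came from the table for 13626 genes and from RefSeq for 746. The text names all 35 genes, every further listed gene past the threshold, and the largest change of a list with none (mean of at least 1 CPM). The genes and lists were chosen with earlier results of these data known.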

Additional observations from a re-analysis of the deposited data

How the results depend on the processing

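Among the 35 genes limma called 5; edgeR called 10 and DESeq2 2. A minimum mean of 1 or 10 CPM, or an adjusted p of 0.1, gave the same 10 genes as edgeR; removing the length trend on top of the 1 CPM minimum (chosen after seeing the data) also gave 10, and an adjusted p of 0.01 gave 1. DESeq2's size factors gave 6, total reads 7 and a pseudocount of 0.1 4. Leaving out 1 library, by limma or edgeR, gave 0 to 11. Over all genes limma called 1360, edgeR 2042, DESeq2 704, an adjusted p of 0.1 2062 and of 0.01 638; a minimum of 1 CPM gave 2034, and 2114 with the length trend removed as well; without 1 library the count ran from 0 to 1767. Limma without either 4-OHT library called 0 of all genes, with 2505 and 2514 at an unadjusted p under 0.05. For the partner lists the count was 10, with edgeR 17, DESeq2 6, a minimum of 1 CPM 17 (18 with the length trend removed as well), an adjusted p of 0.01 2, and 0 to 18 without 1 library. The count of ratios that did not overlap between the groups, above or below, ran from 7 to 11 without 1 library. There 1 library stands for its group and is assumed to vary like the other. Leaving out a library cannot make separate groups overlap, so this count could not fall under 7 and is no check of stability. The cause of these differences was not tested.

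None of the 5 called genes changed sign in 19 alternatives. The libraries of their groups did not overlap, so leaving out 1 library could not turn a sign. A minimum mean CPM or another adjusted p threshold leaves the fold change as it is. For these settings the unchanged sign is thus no check of stability. Counting the fits without 1 library, Kdm4c passed in 17 alternatives, Kdm5b, Kmt2c and Setd1b in 13 and Kdm6b in 12. Signs turned without 1 library for Wdr5 (range of the log2 fold change -0.046 to 0.011), Dpy30 (-0.072 to 0.053), Men1 (-0.036 to 0.087), Ehmt1 (-0.040 to 0.15), Suv39h2 (-0.16 to 0.030) and Nsd1 (-0.0061 to 0.099), and with that minimum and the length trend removed for Dpy30 (0.0059) and Nsd1 (-0.0025). No paired analysis was possible because the deposited columns are group means that carry no replicate numbers. Setdb2 had 2 to 8 reads a library, and of the others Kdm4b (SE 0.102) and Ash1l (SE 0.093) had the widest errors.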
